A study of Mus musculus with 12 samples.

Results

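The genes described here build ribosomes in the nucleolus: 40 genes for RNA polymerase I and its initiation factors, for nucleolar scaffold proteins, for small nucleolar ribonucleoproteins and for processing of the small and large ribosomal subunits, with 1 growth-regulated coactivator, Pprc1. They were given by symbol and matched to array probe sets annotated with exactly 1 gene symbol, and each gene was read from its probe set with the highest mean over 12 arrays. All 40 members had such a probe set, and all 40 lay above the filter on dim probe sets on 12 of 12 arrays, among 12961 genes tested. The members and gene lists were chosen with earlier results of these data known.

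The cells were primary cultures of B cell lymphomas from l-MYC;B1-8f mice (C57BL/6J x BALB/c), whose cells hold a transgene for MYC and a B1-8 immunoglobulin heavy chain that Cre recombinase can delete. Transduction with TAT-Cre, a Cre protein that enters cells, ablated the B cell receptor (BCR). Receptor-positive and receptor-negative cells shared a culture for 4 days before they were separated by flow sorting. Whether both untreated arrays of a tumour were sorted from the same culture is not known here. Each of 3 tumours, numbered 2567, 2646 and 2676, gave 1 array in each of 4 groups. These were untreated BCR-positive cells and untreated BCR-negative cells from mixed cultures, BCR-negative cells from mixed cultures with CHIR99021 (an inhibitor of the kinase GSK3, at a dose the labels do not give), and BCR-independent cells. The BCR-independent cells were 1 clone per tumour (clone 8 of 2567, clone 7 of 2646 and clone 1 of 2676), derived from BCR-negative cells in prolonged culture, left untreated and cultured with receptor-positive cells of their own tumour. All groups share the MYC transgene, and none here is without it. An unexplained (2) closes the titles of 4 arrays, those of BCR-positive and untreated BCR-negative cells in tumours 2646 and 2676. In these tumours every array of those groups has the mark and no treated or BCR-independent array does, so mark and group can be separated only through tumour 2567, which has no marked array.

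Values are log2 signals on whole-transcript arrays, and changes are differences of log2 signals between groups of n = 3 arrays, paired by tumour. Array medians lay between 3.32 and 3.44, and precision is limited by how few arrays there are. Ighv1-72, which encodes the variable part of the targeted heavy chain, averaged 9.62 in BCR-positive, 6.44 in BCR-negative, 5.77 in treated and 4.04 in BCR-independent cells, so it was highest in the group sorted as BCR-positive. Of 8 B lineage markers 7 had a probe set with 1 gene symbol, and 5 of them (Cd79a, Cd79b, Pax5, Ebf1 and Cd22) lay above the array median on every array, while Ms4a1 lay above it on none. Of the defining markers of other cells, Cd3e (T cells) averaged 3.06, Lyz2 (myeloid cells) 2.74 and Klf1 (erythroid cells) 2.72, below the median of every array, while Itgam, also on the myeloid list, averaged 4.93 and Cd8a 3.63, above the median of every array. Of the 7 T and NK markers read, 5 lay above the median of no array, and so did 5 of 8 myeloid markers and 2 of 3 erythroid markers. On the plasma cell list Irf4, Xbp1 and Sdc1 averaged 8.14, 6.14 and 5.81, and Prdm1 3.01. On the list for fibroblasts and endothelium Pecam1 averaged 6.48 and the others 3.27 to 4.17.

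Ribosome production starts when RNA polymerase I, recruited by the factors UBF, SL1 and TIF-IA, copies the ribosomal DNA into one long precursor inside the nucleolus. Small nucleolar ribonucleoproteins modify that RNA, and large assemblies of processing factors cut and fold it into the small and the large subunit. Many of these genes are known targets of MYC, and the rate of the pathway follows the growth of the cell.

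The promoters of the 3 members that passed the test under CHIR99021 (Nop14, Ftsj3 and Polr1e) are shown first, followed by those of Rrn3 and Nop2, which hold the canonical E-box bound by MYC and related factors. Each is the 250 bases before the RefSeq gene start on GRCm38.p6, 5′ to 3′ on the gene's strand, and capitals mark the letters CACGTG (its own reverse complement), CACGCG and GGGCGG on either strand.
Nop14: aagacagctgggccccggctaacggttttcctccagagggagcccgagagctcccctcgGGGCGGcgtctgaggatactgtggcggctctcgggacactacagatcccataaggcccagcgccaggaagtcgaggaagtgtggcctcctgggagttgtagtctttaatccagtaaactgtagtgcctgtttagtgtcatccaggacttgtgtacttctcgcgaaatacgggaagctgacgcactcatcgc
Ftsj3: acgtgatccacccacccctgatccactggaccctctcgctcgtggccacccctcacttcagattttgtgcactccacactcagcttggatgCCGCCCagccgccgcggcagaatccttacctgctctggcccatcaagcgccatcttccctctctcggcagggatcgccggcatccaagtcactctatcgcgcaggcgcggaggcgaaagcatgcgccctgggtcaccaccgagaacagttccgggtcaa
Polr1e: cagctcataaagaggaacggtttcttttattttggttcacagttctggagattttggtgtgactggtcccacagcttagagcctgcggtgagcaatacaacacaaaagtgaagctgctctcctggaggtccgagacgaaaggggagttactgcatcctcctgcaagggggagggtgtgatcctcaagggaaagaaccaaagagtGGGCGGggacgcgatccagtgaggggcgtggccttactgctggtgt
Rrn3: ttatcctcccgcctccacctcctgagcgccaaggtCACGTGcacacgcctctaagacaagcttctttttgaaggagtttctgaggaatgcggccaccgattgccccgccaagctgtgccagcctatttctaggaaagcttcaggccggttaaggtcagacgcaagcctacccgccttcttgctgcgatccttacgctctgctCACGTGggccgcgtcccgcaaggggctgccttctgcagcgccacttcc
Nop2: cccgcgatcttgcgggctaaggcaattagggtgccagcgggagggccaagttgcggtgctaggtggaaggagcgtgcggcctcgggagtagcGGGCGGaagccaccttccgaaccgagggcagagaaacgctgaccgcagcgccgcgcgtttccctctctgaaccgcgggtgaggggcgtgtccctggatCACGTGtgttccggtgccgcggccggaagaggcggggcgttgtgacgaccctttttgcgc
They lie at chr5:34660149-34660398 on the minus strand (Nop14), chr11:106256085-106256334 on the minus strand (Ftsj3), chr4:45018359-45018608 on the plus strand (Polr1e), chr16:13780449-13780698 on the plus strand (Rrn3) and chr6:125131633-125131882 on the plus strand (Nop2). The Rrn3 promoter holds CACGTG at 2 places, its first base 215 and 48 bases before the start, and that of Nop2 holds it 60 bases before the start. The stretches of Nop14, Ftsj3 and Polr1e hold no CACGTG and 1 GGGCGG each, read on the minus strand in Ftsj3.

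RefSeq gave 300 base windows (250 before and 50 after the start) for 34 of the 40 members. CACGTG was present in 6 of those 34 genes (Mybbp1a, Nop2, Pes1, Rrn3, Utp20 and Wdr43), or 17.6%, against 8.09% of 27025 genes with a window and 11.3% of the 10287 genes with a window that were tested here. Only in Nop2 and Rrn3 did it lie before the start. In Mybbp1a, Pes1, Utp20 and Wdr43 it lay in the 50 bases after the start. CACGCG was present in 11 members (32.4%) against 18.8% of tested genes, and GGGCGG in 27 members (79.4%) against 64.8% of tested genes. CACGCG and GGGCGG were added after the sequences were seen, and a match describes letters, not binding. Under CHIR99021 the 6 members with CACGTG had a median change of 0.42 (range 0.32 to 0.52) and the 28 without it 0.38 (range 0.018 to 0.56), so the first range lay inside the second.

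Levels of the members were high and differed most between tumours. Over the 12 arrays their mean levels ran from 5.50 (Rrs1, a factor of large subunit assembly) to 11.26 (Npm1, nucleophosmin, a histone and ribosome chaperone), with a median of 8.19 against 4.76 for all genes tested. Tumour 2567 had the highest mean of its 4 arrays for 39 of 40 members, and 28.9% of all genes were highest there. The median member stood 0.43 above the mean of the other two tumours in tumour 2567, while the median of all genes stood at -0.030. By sums of squares, tumour accounted for a median of 59.4% of a member's variance over the arrays and group for 27.8%, against 39.8% and 20.7% over all genes. In 9 members more variance lay between groups than between tumours. These were Rrn3, the growth-regulated initiation factor TIF-IA (60.9% and 11.1%), Npm1 (58.9% and 4.43%), Nip7 (50.1% and 22.4%), Wdr75, Noc4l, Noc3l, Pes1, Ncl and Rrs1.

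**Figure D1:**
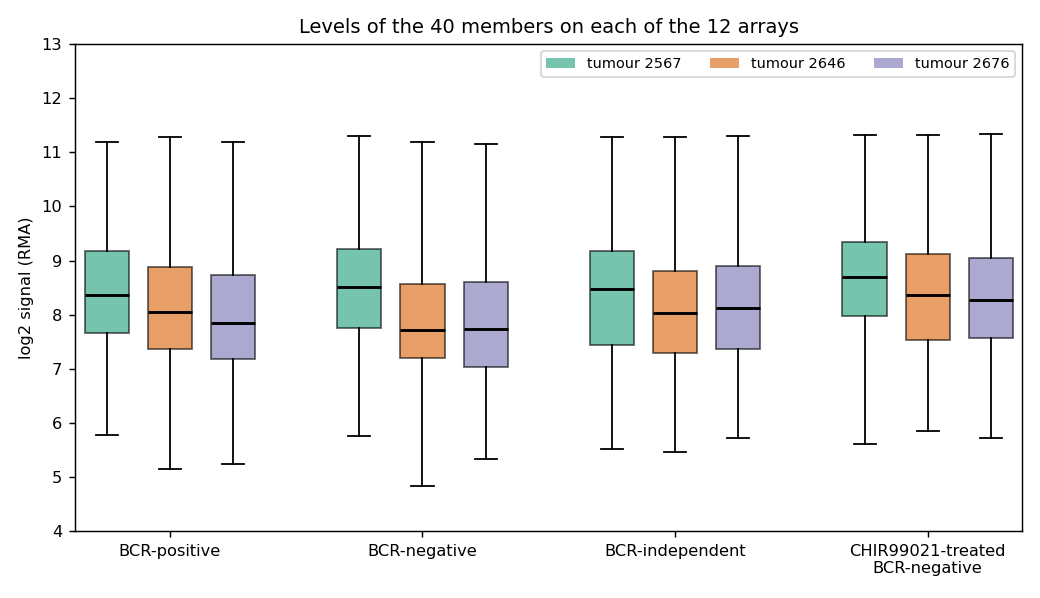
Levels of the 40 members on each array, in log2 signal, with arrays ordered by group and coloured by tumour. Boxes run from the lower to the upper quartile of the members, lines mark the median and whiskers reach the lowest and highest member. Medians lie between 7.73 and 8.70, lowest in untreated BCR-negative cells of tumours 2646 and 2676 and highest in treated cells of tumour 2567.

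The comparison of CHIR99021-treated with untreated BCR-negative cells asks what inhibition of GSK3 changes in cells that lack the receptor. All 40 members had higher mean levels in treated cells, as did 56.7% of all genes, with a median change of 0.41, or 1.33-fold, against 0.026 over all genes tested. The test called 3 members, all upward: Nop14, Ftsj3 and Polr1e. That is 7.5% of the members, where 1.91% of all genes were called in either direction and 1.06% upward. At an unadjusted p under 0.05, 28 members were higher (70.0%), against 10.4% of all genes. In each of the 3 tumours 32 members were higher (80.0%), against 25.7% of all genes. Since each array reads a sorted population as a whole, more cells of a kind and more of a transcript per cell cannot be told apart. The mean level of the 7 B lineage markers was 7.35 to 7.71 over the untreated BCR-negative arrays and 6.89 to 7.30 over the treated ones, with no overlap and 0 markers called, and Ebf1, a B lineage factor, averaged 9.002 and 7.789. Of the other lists, Irf4 (plasma cells) averaged 8.45 and 7.33, Pecam1 (endothelium) 6.76 and 5.97 and Itgam (myeloid cells) 4.999 and 4.483, with limma adjusted p of 0.169, 0.203 and 0.300. Other genes tested were higher in treated cells: 1 of 3 plasma cell, 3 of 6 fibroblast and endothelium and 2 of 4 myeloid genes. The mean of the T and NK list was 2.95 to 3.08 untreated and 3.08 to 3.10 treated, and the ranges of the myeloid, erythroid, plasma cell and fibroblast and endothelium lists overlapped. The part of these markers in the treatment result was not tested.

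Nop14, a factor that assembles the small subunit processome, read 8.03, 7.24 and 6.96 in untreated BCR-negative cells of tumours 2567, 2646 and 2676 and 8.31, 7.89 and 7.61 in treated cells. Each tumour was higher with treatment, and the 2 groups overlapped because untreated tumour 2567 exceeded treated tumours 2646 and 2676. Its mean was 7.41 ± 0.55 without and 7.94 ± 0.35 with treatment (SD, n = 3), and it rose by 0.53 or 1.44-fold (SE 0.10, limma adjusted p = 0.0391). Its BCR-positive arrays read 8.00, 7.35 and 7.23 and its BCR-independent arrays 8.03, 7.47 and 7.42, each below the treated array of the same tumour.

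Ftsj3, a nucleolar methyltransferase of large subunit processing, read 8.62, 7.84 and 7.83 in untreated and 8.94, 8.65 and 8.36 in treated BCR-negative cells. It rose by 0.55, or 1.47-fold (SE 0.11, limma adjusted p = 0.0409), by 0.32, 0.82 and 0.53 in tumours 2567, 2646 and 2676. Polr1e, the PAF53 subunit of RNA polymerase I, read 6.54, 6.06 and 5.66 in untreated and 6.95, 6.63 and 6.25 in treated cells. It rose by 0.52, or 1.44-fold (SE 0.11, limma adjusted p = 0.0482), and its 3 tumours lay close together at 0.41, 0.57 and 0.59. Both groups overlapped in each gene, again through the high level of untreated tumour 2567. These calls hung on the whole set of arrays: without tumour 2567, 2646 or 2676 the members called were 0, 0 and 0, with 17, 1 and 10 of all genes called. They were also 0 without the tumour block (12 of all genes) and 0 when the fit held a term for the title mark (32 of all genes), while array weights gave 30 members, with 12.6% of all genes called.

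**Figure D2:**
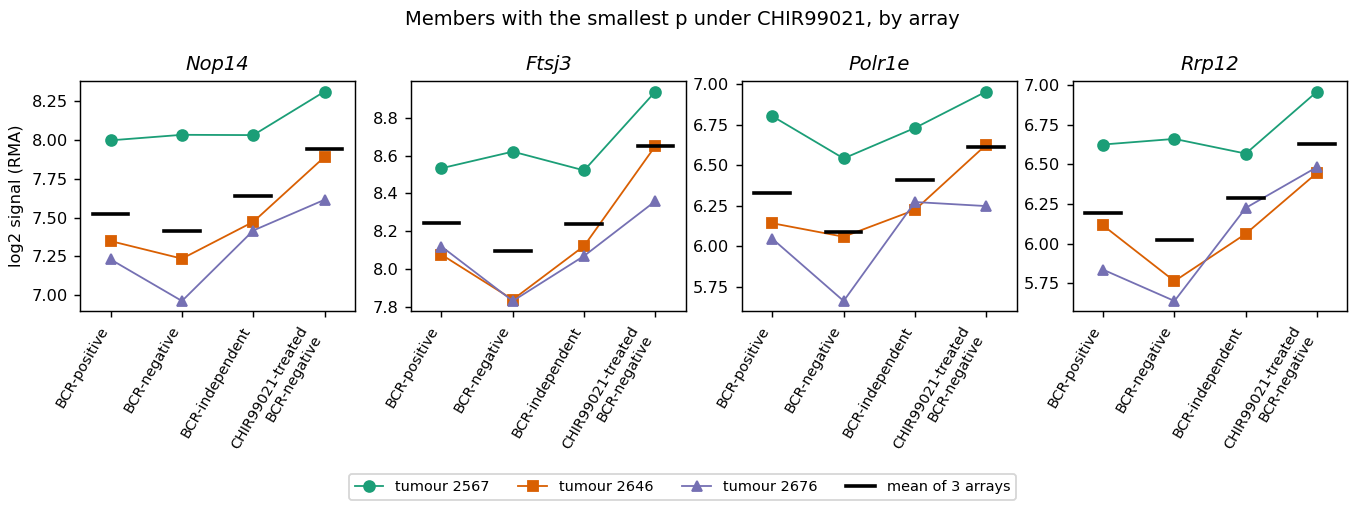
Log2 signal of Nop14, Ftsj3, Polr1e and Rrp12 on each array, with lines joining the arrays of a tumour across the 4 groups and black bars marking group means. In all 4 genes the treated array lies above the untreated BCR-negative array of the same tumour, and tumour 2567 lies above the other two.

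Of the 3 members next by p, none passed the test. Rrp12, which serves export of the small subunit, had the largest change of any member at 0.61 (1.52-fold, SE 0.13, limma adjusted p = 0.050013, just above the threshold), from 6.66, 5.76 and 5.64 untreated to 6.96, 6.45 and 6.48 treated. Tcof1, treacle, the nucleolar protein that links RNA polymerase I to processing, changed by 0.51 (SE 0.11, limma adjusted p = 0.0550). Nop16, a large subunit factor, changed by 0.45 (SE 0.11, limma adjusted p = 0.0725). All 3 were higher with treatment in every tumour.

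RNA polymerase I genes and their initiation factors had changes from 0.018 (Taf1d) to 0.52 (Polr1e). Their median change was 0.24 over 7 members, with 1 call, Polr1e. Rrn3 had separate groups, at 7.60, 7.18 and 7.39 in untreated and 7.93, 7.84 and 7.70 in treated cells, and changed by 0.43 (limma adjusted p = 0.117). Polr1b, the second largest subunit, changed by 0.43, Polr1a, the largest, by 0.24, and Polr1c, shared with RNA polymerase III, by 0.15. Ubtf, which encodes UBF, changed by 0.11 with a 95% interval of -0.16 to 0.38, and Taf1d, a subunit of SL1, by 0.018 with an interval of -0.19 to 0.23. In tumour 2567 Polr1a, Ubtf and Taf1d changed by -0.0050, -0.10 and -0.12, against 0.34, 0.32 and 0.052 in tumour 2646.

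Taf1d is read by 12 probe sets, 4 of which carry identical values, with mean levels from 5.99 to 10.77. In a fit over all probe sets with 1 gene symbol, 11 of the 12 were higher in treated cells, with changes from -0.0042 to 0.54, and none passed the test (lowest limma adjusted p = 0.208). The probe set that stands for the gene here, the brightest, changed by 0.018, and the third brightest, at a mean of 8.40, by 0.36. Which part of the transcript each reads was not examined, and Taf1d is also known as a host gene of small nucleolar RNAs. Its value is therefore uncertain. Npm1 has 4 probe sets, which changed by 0.11 to 0.12, Fbl 2 (0.15 and 0.25), Mrto4 2 (0.40 and 0.45), Wdr12 2 (0.34 and 0.36) and Pes1 2 (0.32 in the bright one, and 0.13 in one at a mean of 3.47). Ncl has 2, of which 1 lay below the filter.

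Nucleolar scaffold proteins and regulators of ribosomal DNA had a median change of 0.44 over 5 members, with none called by limma and 3 at an unadjusted p under 0.05. Nolc1, which shuttles between nucleolus and cytoplasm and binds small nucleolar ribonucleoproteins, changed by 0.53 (limma adjusted p = 0.0750), and Mybbp1a, a regulator of ribosomal DNA transcription, by 0.44. Ncl, nucleolin, changed by 0.22 from a mean of 10.76, and Npm1 by 0.11 from a mean of 11.22. Npm1 read 11.30, 11.19 and 11.16 untreated and 11.31, 11.32 and 11.34 treated, so its groups did not overlap although the change was small.

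Among small nucleolar ribonucleoproteins, Nop56, a core protein of the box C/D class, read 10.32, 9.81 and 10.01 untreated and 10.48, 10.36 and 10.39 treated, with no overlap, a change of 0.36 (limma adjusted p = 0.0883). Its partner Nop58 changed by 0.28, the methyltransferase fibrillarin (Fbl) by 0.15, and dyskerin (Dkc1), the pseudouridine synthase of the box H/ACA class, by 0.28. In tumour 2567 Nop58 and Dkc1 changed by -0.071 and -0.044, against 0.46 and 0.51 in tumour 2646.

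Genes of small subunit processing had the highest median change of the 5 roles with several members, 0.48 over 9 members. All 9 were higher in each tumour and had an unadjusted p under 0.05, and 1 was called, Nop14. Changes ran from 0.39 (Utp20) through 0.41 (Heatr1 and Wdr43), 0.48 (Noc4l and the helicase Ddx21), 0.50 (Rrp9, of the U3 particle, and Wdr75) to 0.61 (Rrp12). Rrp9 had a change of 0.80 in tumour 2646 and of 0.39 and 0.30 in tumours 2567 and 2676. That this group differs from the others was not tested.

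Genes of large subunit processing had a median change of 0.38 over 14 members, with 12 higher in every tumour and 1 called, Ftsj3. Rrp1b changed by 0.56, Nop2, which methylates cytosine in the large ribosomal RNA, by 0.52, and the PeBoW complex of Bop1, Pes1 and Wdr12 by 0.45, 0.32 and 0.34. Nop2 read 9.18, 8.45 and 8.33 untreated and 9.33, 9.33 and 8.88 treated. Rrs1, Mrto4, Noc2l, Nip7, Pa2g4, Gnl3 and Noc3l changed by 0.42, 0.40, 0.36, 0.32, 0.28, 0.27 and 0.22. Nip7 had separate groups, at 7.38, 6.82 and 7.37 untreated and 7.55, 7.40 and 7.57 treated. Rrs1 had the widest spread of any member, from -0.15 in tumour 2567 to 1.00 in tumour 2646, and Gnl3, nucleostemin, lay at -0.14 in tumour 2567 and 0.48 and 0.47 in the others. Rrn3, Npm1, Nop56 and Nip7 were the 4 members with no overlap between groups (10.0%), against 5.90% of all genes. Pprc1, a coactivator of growth and mitochondrial genes, changed by 0.44, from 7.16, 5.95 and 6.14 to 7.14, 6.51 and 6.93, with almost no difference in tumour 2567.

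**Figure D3:**
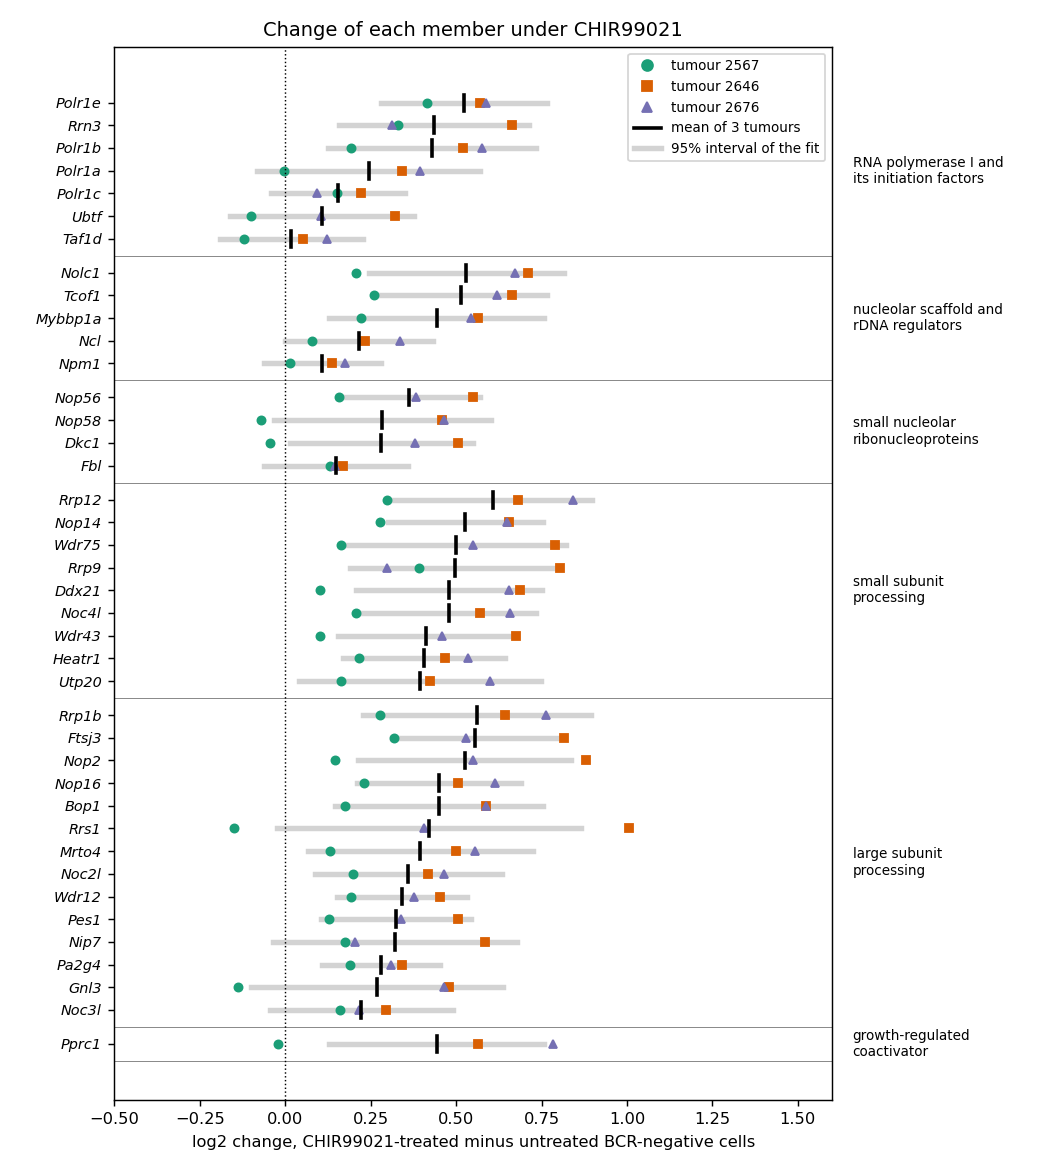
Change of each member between CHIR99021-treated and untreated BCR-negative cells, in log2 units, by role. Symbols are the 3 tumours, black bars their mean and grey bars the 95% interval of the limma fit. All 40 means lie right of 0, and tumour 2567 lies left of the other two for most members.

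The treatment difference varied in size between tumours. The median member changed by 0.16 in tumour 2567, 0.53 in tumour 2646 and 0.47 in tumour 2676, where the median over all genes was 0.061, 0.020 and 0.0045. In tumour 2567 32 of 40 members were higher, and in tumours 2646 and 2676 40 and 40 were. Tumour 2567 is the one without marked titles and the one with the highest untreated level: all 40 members were higher in its untreated BCR-negative array than in those of both other tumours, by a median of 0.69. In treated cells that difference had a median of 0.32. With a term for the mark the median change was 0.21 and 37 members were higher.

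**Figure D4:**
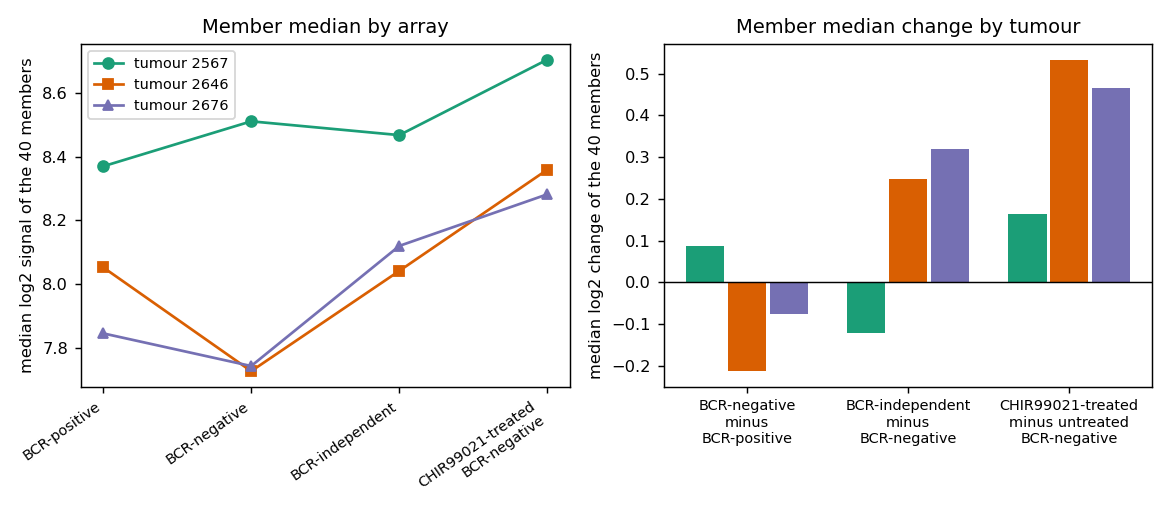
Left, median log2 signal of the 40 members on each array, with lines joining the arrays of a tumour. Right, median log2 change of the members in each tumour for the 3 main comparisons. Treated cells have the highest median in every tumour, and the bars of tumour 2567 point the other way from those of the others in the first 2 comparisons.

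Other genes of the pathway, from 6 lists of 146 listed genes with 128 tested, were set beside the members. In treated cells 110 of the 128 were higher (85.9%), against 56.7% of all genes, with a median of 0.27 against 0.026 for all genes. Of the 128, 7 passed upward and 1 downward, where 1.06% of all genes passed upward and 1.91% in either direction. Small subunit genes outside the member list had a median of 0.38 (38 of 41 higher, 3 called) and large subunit genes 0.29 (36 of 40 higher, 4 called). The 7 that rose were Nat10 (0.60, limma adjusted p = 0.0264), an RNA cytidine acetyltransferase, Wdr46 (0.55, limma adjusted p = 0.0268), Tsr2 (0.50), Ddx31 (0.56), Pelp1 (0.51), Rpf2 (0.42) and Nle1 (0.47). RNA polymerase I genes outside the member list had a median of 0.21 (5 of 7 higher, 0 called at adjusted p, 2 at an unadjusted p under 0.05), led by Cd3eap (Polr1g) at 0.48 and Polr1d at 0.22. Other small nucleolar ribonucleoprotein genes had a median of 0.23 (8 of 9 higher), led by Naf1 (0.45) and Nhp2 (0.33), and exosome genes, which trim precursors, 0.23 (11 of 12 higher), led by Exosc1 (0.34) and Exosc2 (0.45). RNA polymerase III genes had the lowest median, 0.13, and 12 of 19 were higher (63.2%), near the share of all genes. Maf1, the repressor of RNA polymerase III, fell by 0.82, from a mean of 7.28 to 6.46 (SE 0.17, limma adjusted p = 0.0499), while Polr3g, a subunit of that polymerase, changed by 0.59 (limma adjusted p = 0.123). Like those of the members, these 8 calls needed all arrays: 0 of the 8 were called without tumour 2567, 2646 or 2676, without the tumour block or with a term for the title mark, though all 8 kept their direction. With only the compared groups in the fit Maf1 alone was called.

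Setting BCR-negative beside BCR-positive cells asks what loss of the receptor changes in mixed cultures. No member passed limma's test, with 1 at an unadjusted p under 0.05 (2.5%, against 3.19% of all genes), and 0.00772% of all genes were called. Only 6 of 40 members were higher in BCR-negative cells, against 49.7% of all genes, with a median change of -0.068 against -0.00093 for all genes. The tumours differed in direction: the median was 0.087 in tumour 2567, with 36 of 40 members higher, -0.21 in tumour 2646, with 1 of 40 higher, and -0.077 in tumour 2676, with 13 of 40 higher. Without tumour 2646 the median was 0.021.

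Polr1e had the smallest p in this comparison, at 6.80, 6.14 and 6.05 in BCR-positive and 6.54, 6.06 and 5.66 in BCR-negative cells, a change of -0.24 (SE 0.11, limma adjusted p = 0.999, 95% interval -0.49 to -0.00088). Polr1e, Tcof1 (-0.19) and Dkc1 were the 3 of 40 members lower in every tumour, where 1555 of 12961 genes were. Of the members 0 were higher in every tumour, against 12.4% of all genes. Rrn3 (-0.19), Polr1b (-0.18) and Ftsj3 (-0.15) came next among those lower. Nip7, a large subunit factor, had the largest positive value, 0.26 (95% interval -0.096 to 0.62), which came from tumour 2676 (0.70) more than from 2567 (0.15) and 2646 (-0.077).

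BCR-independent clones were set beside BCR-negative cells of the same tumours to ask what marks cells that persist without the receptor. No member passed limma's test, while 8 (20.0%) were higher at an unadjusted p under 0.05, against 3.60% of all genes, and 0.00772% of all genes were called. Of the members 36 were higher (90.0%), against 55.3% of all genes, and 9 were higher in every tumour (22.5%), against 16.0%, with a median of 0.15 against 0.017 for all genes. Again tumour 2567 differed, with a median of -0.12 and 9 members higher, against 0.25 and 38 in tumour 2646 and 0.32 and 36 in tumour 2676. With a term for the title mark the median was -0.043 and 17 members were higher. This comparison shares its BCR-negative arrays with the 2 described above.

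Pprc1 had the largest change, from 7.16, 5.95 and 6.14 in BCR-negative to 7.33, 6.49 and 6.80 in BCR-independent cells, or 0.45 (SE 0.14, limma adjusted p = 0.781). Polr1e changed by 0.32, Nolc1 by 0.33, Wdr43 by 0.29, Nop56 by 0.24 and Wdr12 by 0.22, with limma adjusted p between 0.799 and 0.814. Nop56 lay at 10.46, 10.07 and 10.32 in BCR-independent cells, above the BCR-negative array of each tumour. Fbl, at -0.14, was the 1 member of 40 lower in every tumour, where 1332 of 12961 genes were. That is its brightest probe set, and its other one changed by -0.0047. Polr1c, Taf1d and Noc3l also had negative values. No member had separate groups, against 2.99% of all genes separated upward. Outside the member list, Tsr2 (0.45), Utp11 (0.29), Nle1 (0.30), Ddx56 (0.34), Nhp2 (0.25), Snu13 (0.11), Cd3eap (0.16), Znrd1 (0.15), Exosc1 (0.17), Exosc2 (0.18), Polr3g (0.34) and Gtf3c3 (-0.27) had the smallest p of their lists, and 0 of 128 genes passed. At receptor loss the corresponding genes were Ngdn (-0.40), Nat10 (-0.21), Pelp1 (-0.17), Tma16 (0.29), Nufip1 (-0.12), Gar1 (0.13), Taf1a (-0.21), Polr1d (0.15), Exosc4 (0.26), Mtrex (-0.12), Polr3g (-0.32) and Gtf3c3 (0.23), and 0 passed.

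Treated BCR-negative cells were also set beside both other groups, which share the treated arrays. Against BCR-positive cells 38 of 40 members were higher, where 57.1% of all genes were, and 33 were higher in every tumour, where 21.2% of all genes were, with a median of 0.31 against 0.029 for all genes. None passed limma's test, with 27 (67.5%) higher at an unadjusted p under 0.05 against 9.52% of all genes, and 0.802% of all genes called. The median was 0.24, 0.29 and 0.38 in tumours 2567, 2646 and 2676, and Taf1d and Ubtf, at -0.038 and -0.030, were the 2 members not higher. A term for the title mark lowered the median to 0.15, with 34 members higher. Nop14 (0.41, limma adjusted p = 0.0909), Nop16 (0.41) and Ftsj3 (0.41) had the smallest p. Separate groups were found for 7 members (17.5%), Rrn3, Ncl, Npm1, Nop56, Noc4l, Nip7 and Noc3l, against 6.99% of all genes. Noc4l, a small subunit factor, read 7.45, 7.12 and 6.98 in BCR-positive and 7.78, 7.46 and 7.57 in treated cells.

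Against BCR-independent clones the treated cells had higher values for 39 of 40 members, where 52.8% of all genes were higher, and for 34 in every tumour, where 19.4% were, with a median of 0.23 against 0.0100 for all genes, and medians of 0.26, 0.28 and 0.12 in the 3 tumours. This difference is also the test of whether treated cells and clones stand at different distances from BCR-negative cells. No member passed limma's test, with 16 of 40 higher at an unadjusted p under 0.05 against 7.05% of all genes, and 0.162% of all genes called (0.0309% upward). Separate groups were found for 8 members (20.0%), Rrn3, Ncl, Npm1, Wdr75, Noc4l, Pes1, Mrto4 and Noc3l, against 4.27% of all genes. Ftsj3 (0.41, limma adjusted p = 0.182), Noc4l (0.43) and Heatr1 (0.39) had the smallest p. Pprc1 was the 1 member not higher, at -0.010 with a 95% interval of -0.32 to 0.30. The title mark is carried by neither of these groups, and a term for it left the median at 0.23.

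BCR-independent cells had a median of 0.086 above BCR-positive cells, against 0.022 for all genes, with 29 of 40 members higher, against 55.7% of all genes. Of the members 8 were higher in every tumour (20.0%), against 15.1% of all genes, and 0 had groups separated upward, against 4.79%. No member passed limma's test, 1 had an unadjusted p under 0.05 (2.5%, against 9.61% of all genes in either direction and 5.38% upward), and 0.0849% of all genes were called (0.0386% upward). Nip7 had the largest value, 0.37 (95% interval 0.012 to 0.72, limma adjusted p = 0.503), and Pprc1 had 0.29 and Wdr12 0.18. Fbl and Taf1d, each by its brightest probe set, were lower in every tumour, where 1417 of 12961 genes were. The other Fbl probe set changed by -0.080, and those of Taf1d differed in direction, from -0.43 to 0.46. Tumour medians were -0.025, 0.025 and 0.22, and a term for the title mark gave a median of -0.093.

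**Figure D5:**
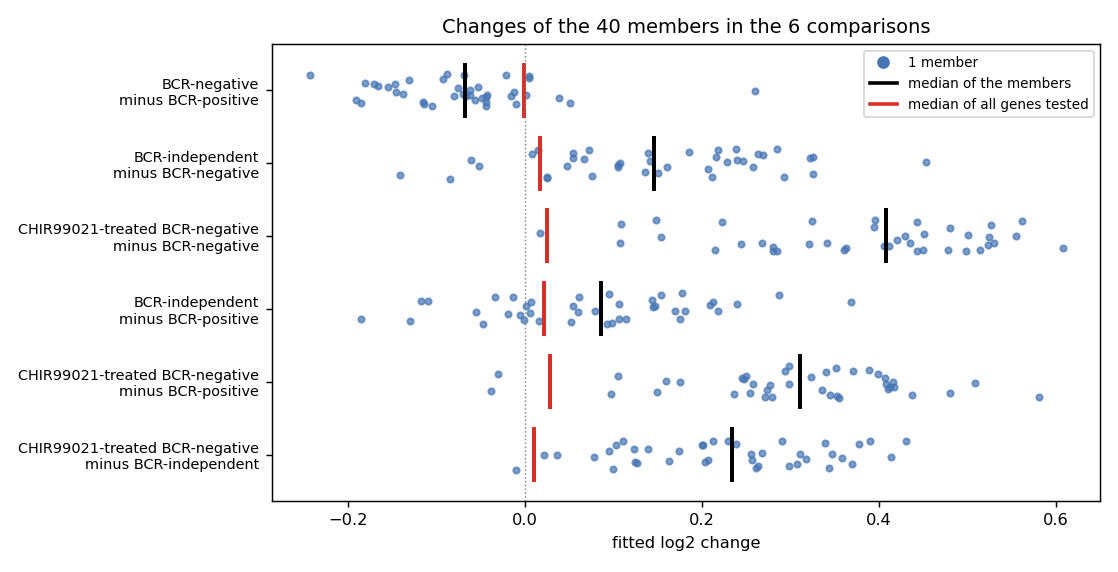
Fitted log2 changes of the 40 members in each of the 6 comparisons, with 1 point per member. Black bars mark the median of the members and red bars the median of all 12961 genes tested. The members lie furthest from the median of all genes in the 3 comparisons of treated cells.

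Within each tumour the treated array held the highest of the 4 values for most members, 32 of 40 in tumour 2567, 36 in tumour 2646 and 35 in tumour 2676. The lowest value lay in BCR-negative cells for 37 members in tumour 2646 and 25 in tumour 2676, and in BCR-independent cells for 24 in tumour 2567. How often each group held the highest or lowest value over all genes was not counted. Group means of the member median were 8.45 ± 0.23 in treated, 8.21 ± 0.23 in BCR-independent, 8.09 ± 0.26 in BCR-positive and 7.99 ± 0.45 in BCR-negative cells (SD, n = 3). The median of treated cells lay above that of BCR-independent cells in each tumour, at 8.70 and 8.47 in tumour 2567, 8.36 and 8.04 in tumour 2646 and 8.28 and 8.12 in tumour 2676. No such order held in every tumour between BCR-independent, BCR-positive and BCR-negative cells.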

How the data were processed

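Gene expression was measured on 12 whole-transcript mouse gene arrays from Affymetrix. The deposited values are log2 signals. Per the submitters' processing notes, the authors used Affymetrix Power Tools and RMA. This method corrects background, brings arrays to a common distribution and summarises probes, so dim differences are compressed. Their versions are not stated in the sources. With 0 columns left without a sample, values were used as deposited. No scanner files were used, so background correction and slide could not be varied.

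Of 35556 probe sets, 21218 had 1 gene symbol, 1881 several and 12457 none. Symbols of 21185 were updated by gene ID through RefSeq (GRCm38.p6, names and promoters only). In the lists, Polr1f, Polr1g and Polr1h were matched under their older symbols. A probe set was kept if it exceeded the 40th percentile of at least 3 arrays. In R 4.3.3, limma 3.58.1 (lmFit, eBayes; 6 residual and 3.41 prior degrees of freedom) fitted group and tumour over all arrays, and genes were called at Benjamini-Hochberg adjusted p under 0.05 over 12961 genes. Tumour numbers pair the arrays: residuals correlated between 0.28 and 0.79 within tumours and between -0.72 and 0.17 across them. Nothing in the labels says that arrays came from separate animals beyond the 3 tumours. The p-values rest only on the spread among these arrays that remains once group and tumour are fitted. The fit was tested on simulated data.

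Members, lists and rules were chosen with earlier results of these data known. Detailed values are given for members called, for the 6 (main comparisons) or 3 (others) members of smallest p and for the highest and lowest levels, and in the other pathway lists for the 2 genes of smallest p. Other member values, every member's under CHIR99021 included, were added after they were seen. Alternatives were no block, other filters, trend and robust eBayes, array weights, quantile normalization, 2 groups only, mean probe sets, the title mark as a term and each tumour left out.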

Additional observations from a re-analysis of the deposited data

How the results depend on the processing

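The number of members called under CHIR99021 (3, with 248 of all genes called) was the least stable result. It was 0 without the replicate block by tumour (12 of all genes) and with a term for the title mark (32 of all genes). It was also 0 after quantile normalization (222 of all genes) and with only the 2 groups compared (109 of all genes). The number of members was 30 with array weights, and 0 to 0 with a tumour left out, where fewer arrays remain. With no filter, with the stricter filter and with the other settings it was within 1.5 times of 3, but Polr1e was lost with no filter, and with trend and robust eBayes, where Nop56 was called. The changes of Nop14, Ftsj3 and Polr1e ranged from 0.36 to 0.65, 0.42 to 0.67 and 0.39 to 0.58 over the alternatives, and their adjusted p from 0.0032 to 0.80, 0.0037 to 0.64 and 0.0048 to 0.76. In the other 5 comparisons 0 members were called under every alternative. The member median turned to -0.043 (BCR-independent minus BCR-negative) and -0.093 (BCR-independent minus BCR-positive) with the title mark, moved to 0.15 (treated minus BCR-positive) with it, and turned to 0.021 (BCR-negative minus BCR-positive) without tumour 2646 (range -0.15 to 0.021 with a tumour left out). For those turns and moves the cause was not tested. All other medians kept their direction and moved by less than the spread between tumours. That spread was wide for treated minus BCR-negative cells, with tumour medians of 0.16, 0.53 and 0.47. There the title mark term lowered the median of 0.41 to the value given above, a fall only just within that spread. Without the block 0 members were called in any comparison, and of all genes 12 in place of 248 (treated minus BCR-negative), 7 in place of 104 (treated minus BCR-positive), 5 in place of 21 (treated minus BCR-independent), 4 in place of 11 (BCR-independent minus BCR-positive) and 0 in place of 1 in the other two. The distance of signals from background limits dim genes, but no member was near the filter.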
